A study of Oryza sativa Japonica Group with 3 samples.

Results

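OsPRR37 and Ghd7 are flowering repressor genes of rice, and their loci were read in peak lists of ChIP-seq, an assay that sequences the DNA precipitated with a chromatin protein. The proteins precipitated were LUX and ELF3, members of the evening complex. Regions were assigned to a gene where a summit, the position of highest signal, lay in a window on chromosome 7 of IRGSP-1.0. The OsPRR37 window ran from 29600000 to 29645000 and the Ghd7 window from 9140000 to 9170000. Of 824 ELF3 regions in the main list, 3 lay in these windows, all of them at OsPRR37. Of 177 LUX regions, 0 did.

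All plants were Nipponbare, a japonica cultivar, grown for 14 days at 28 °C under a cycle of 10 h light and 14 h darkness, and 20 plants were pooled per genotype at ZT14. ZT14 is 14 h after lights on and falls in the dark. The LUX library came from a line carrying an OsLUX genomic fragment with its own promoter, both untranslated regions and a c-MYC tag, and was made with an anti-MYC antibody. The labels do not say how many transgenic lines were used or whether the tagged line also keeps its native OsLUX. Untransformed wild-type plants gave the ELF3 library, made with a custom antibody, and the input library, which is DNA that was not precipitated. After filtering they held 20173598 LUX tags, 18357646 ELF3 tags and 14797701 input tags. With 1 library per group no spread between replicates could be measured, no test was made, and the 95% Poisson intervals given below cover counting error only.

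The evening complex is a repressor of transcription within the plant circadian clock. It forms around dusk and acts at night. In it LUX, a MYB protein, contacts DNA, and ELF3 is the scaffold. OsPRR37, also known as Hd2 or DTH7, is a pseudo-response regulator with a CCT domain that delays flowering in long days. Ghd7 is a CCT-domain protein that delays flowering in long days by lowering expression of Ehd1, an activator of flowering. The study's paper was not used here, and that it treats both genes as targets of the evening complex is stated from general knowledge of the study. The question put to the lists is whether each protein was enriched at each gene, where, and how strongly.

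ELF3 was strongly enriched at the start of OsPRR37, and no other combination of protein and gene was listed. The strongest ELF3 summit lay 127 bp before the gene's start, which is near 29616700, and carried 251 tags. Its fold enrichment, the ratio of ChIP signal to local background, was 11.96 (95% Poisson interval 10.5 to 13.5). LUX had no region in the OsPRR37 window, and neither ELF3 nor LUX had one in the Ghd7 window. These outcomes were the same in the submitters' other call of each library. The share of 45 kb windows along the 12 chromosomes that held an ELF3 region was 5.74%, and 1.08% held 3 or more, as the OsPRR37 window did. For 30 kb windows, the length of the Ghd7 window, the share with an ELF3 region was 3.98%. LUX regions stood in 1.60% of the 45 kb windows and 1.09% of the 30 kb windows. In the other call the corresponding shares were 5.85%, 1.11% and 4.05% for ELF3 and 0.674% and 0.457% for LUX. A window without a LUX or ELF3 region was therefore the usual case in these lists.

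The 3 ELF3 regions at OsPRR37 formed a domain of 5551 bp from 29614119 to 29619669, of which 4260 bp (76.7%) lay inside a called region. Distances are given from the start near 29616700, with the gene taken to run towards higher coordinates. That start is approximate, and no gene model of IRGSP-1.0 was used here, so exons and introns are not assigned. The first region, from 29614119 to 29614756, lay wholly before the start. The central region, from 29615482 to 29618859, began 1218 bp before the start, ended 2159 bp after it and was 3378 bp wide. The third, from 29619426 to 29619669, was 244 bp wide and lay wholly after the start.

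The caller resolved 8 ELF3 summits in the domain, 3 before the start and 5 after it. In the first region the summit lay 2243 bp before the start, with 44 tags and 2.39-fold enrichment (1.76 to 3.19). The central region held 6 summits. Its first lay 993 bp before the start, with 67 tags and 3.61-fold enrichment (2.81 to 4.57). The main summit followed 866 bp further on.

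After the start, ELF3 enrichment was lower and uneven. At 551 bp it was 5.09-fold (4.13 to 6.21, 95 tags), the second highest value of the locus. It was 2.92-fold at 895 bp (2.21 to 3.79, 54 tags) and 4.40-fold at 1202 bp (3.52 to 5.45, 82 tags). The summits at 1744 and 2855 bp, the last of which made up the third region, had equal values of 49 tags and 2.66-fold enrichment (1.98 to 3.49).

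The interval of the main summit overlapped that of no other summit in the domain. Among the other summits, the highest (5.09-fold) had an interval above those at 895, 1744 and 2855 bp after the start and 2243 bp before it. Its interval overlapped those of the summits 993 bp before and 1202 bp after the start. The interval of the dip at 895 bp lay below that of the summit at 551 bp and overlapped that of the summit at 1202 bp. Overlap of intervals does not show that values are equal, and no test between summits was made. A −log10 q of 10 or more was reached at 4 summits, all in the central region, at 139.2 for the main one. The regions on both sides of the central one had values of 3.06 and 4.70.

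**Figure D1:**
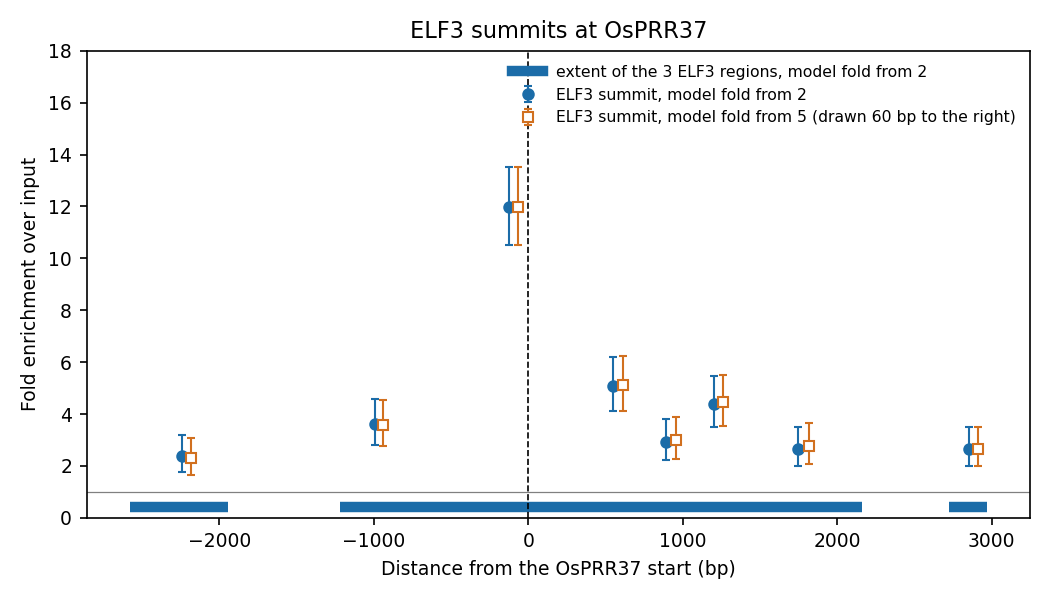
ELF3 fold enrichment over input at the 8 summits of the OsPRR37 domain (y axis) against distance from the gene's start in bp (x axis, dashed line at the start), with 95% Poisson intervals; circles are the main call and open squares the other call, and bars along the bottom show the 3 regions. The summit 127 bp before the start, at 11.96-fold, stands above the other seven, which lie between 2.39-fold and 5.09-fold in the main call.

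The neighbouring summits lay 307 to 1250 bp apart, further than the 202 bp to which ELF3 tags were extended, so no tag counted at more than 1 summit. Of 691 tags at the 8 summits, 251 (36.3%, 95% Clopper-Pearson interval 32.7 to 40.0%) were at the main one, which had 2.64 times the tags of the next. The 3 summits before the start held 362 tags and the 5 after it 329, so that 52.4% (48.6 to 56.2%) of summit tags lay before the start. This split depends on the start, which is approximate, because the main summit with its 251 tags lay only 127 bp before it. The interval does not cover that error. The main summit was off the middle of its region, 1091 bp from the lower end and 2286 bp from the higher end.

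The local background was worked out from pileup and fold enrichment. At 7 of the 8 summits it was the genome-wide value of 14.2 scaled tags, to within 0.01. That value is the lowest background in the list, so the input signal itself at those summits may have been lower. The genome-wide value depends on input depth, extension length and the effective genome size set for the call, which was 210 Mb. The 8165 windows of 45 kb counted above together span more than that. A larger setting would lower this background, raise fold enrichment at those summits and lower the tags needed for listing either protein. At the main summit the background was 16.0, or 1.12 times the genome-wide value. Measured against the genome-wide background, enrichment there would be 13.3-fold in place of 11.96-fold.

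All 8 summits were found again in the submitters' other ELF3 call, shifted by at most 11 bp, with fold enrichments that differed by at most 0.12 and tags that differed by at most 3. The main summit had 251 tags and 11.96-fold enrichment there too. Both calls were made from the same library, so they show the effect of the extension length, 202 against 197 bp, and no spread between plants.

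Within the ELF3 list the OsPRR37 locus was among the strong and wide ones. Its central region shared rank 27 of 824 by fold enrichment with 1 other region, where the median over all regions was 3.13. It had rank 24 by −log10 q, rank 22 by tags and rank 11 by width, where the median width was 410 bp. Counting error left its order loose. The intervals of 9 regions lay wholly above that of OsPRR37, those of 758 wholly below it, and those of 56 overlapped it. The other 2 regions of the domain were weak, at ranks 699 and 572. Of 502 ELF3 domains, made by joining regions at most 5 kb apart, 86 held 3 or more regions, and OsPRR37's had rank 39 by span and rank 27 by enrichment.

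**Figure D2:**
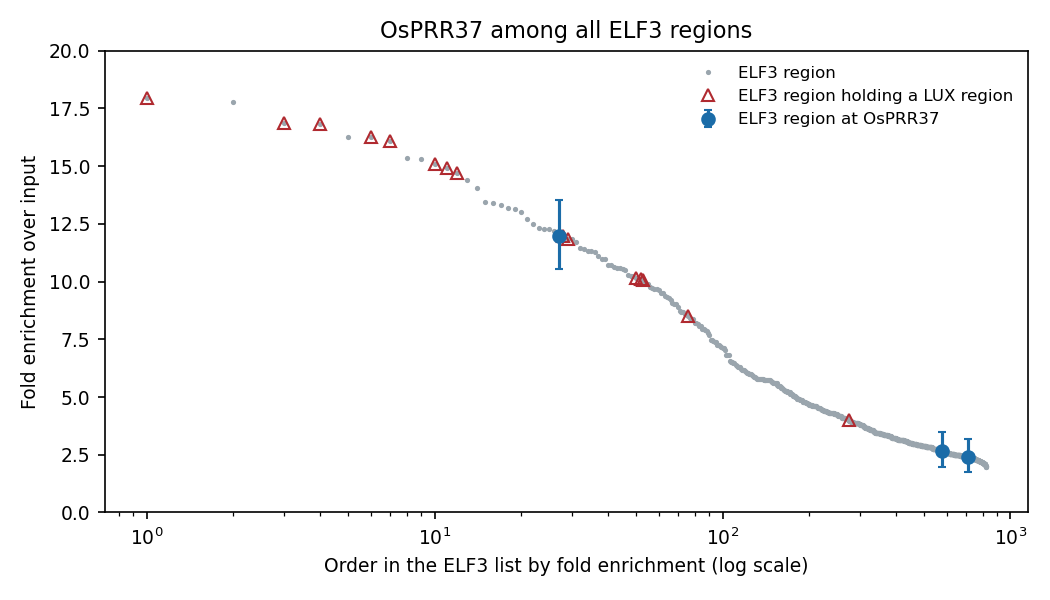
Fold enrichment over input (y axis) of the 824 ELF3 regions in order of enrichment (x axis, log scale), with the 3 OsPRR37 regions as large circles with 95% Poisson intervals and the 15 ELF3 regions that hold a LUX region as triangles. The central OsPRR37 region sits at rank 27, next to 2 regions that hold LUX, and the 2 flanking regions sit in the lower part of the list.

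The central region held 6 summits, as 6 of the 824 regions did, and 14 had more, so that 2.43% of the list reached that number. Its second summit had 0.426 times the enrichment of the highest. In the other 239 ELF3 regions with several summits the median of this ratio was 0.717, and 57 had a lower one. The other 5 regions of 6 summits had ratios from 0.235 to 0.954. OsPRR37 thus had a dominant summit among minor ones, within the range of regions of like summit number. The other 13 regions within 20% of its width had enrichments from 4.46-fold to 17.8-fold, with a median of 13.5, and 3 of them held LUX.

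**Figure D3:**
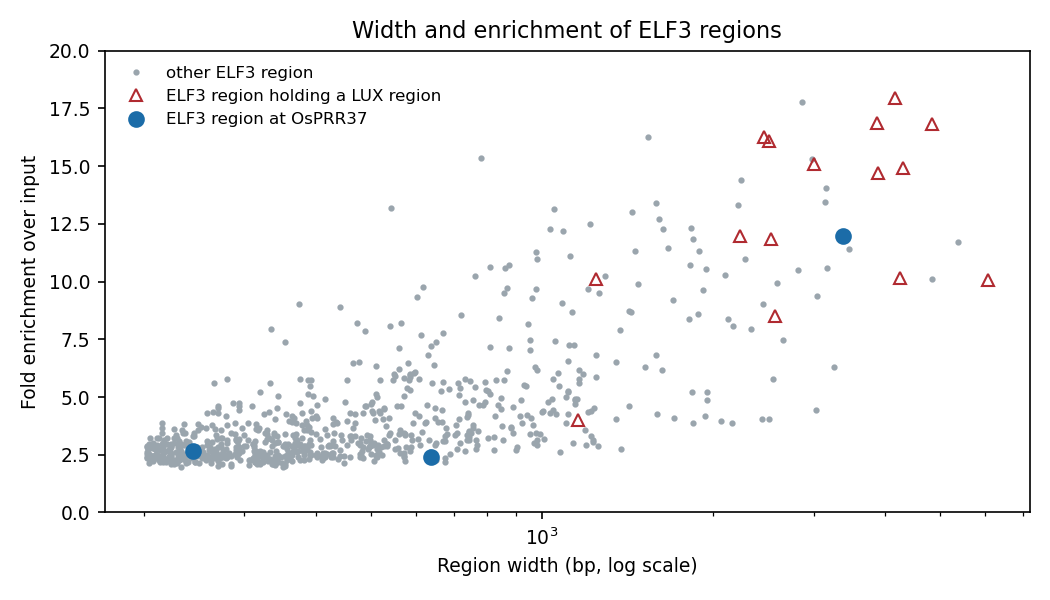
Width in bp (x axis, log scale) and fold enrichment over input (y axis) of ELF3 regions, with those at OsPRR37 as large circles and those that hold a LUX region as triangles. The central OsPRR37 region, 3378 bp wide and 11.96-fold enriched, lies among the wide and strong regions, where most triangles also lie, and the regions of 638 and 244 bp lie among the many weak ones.

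On chromosome 7 the central region was the fourth strongest of 79 ELF3 regions. The stronger ones lay at 22317870 to 22319310 with 13.0-fold enrichment (11.5 to 14.6), and at 3356408 to 3358037 and 4566809 to 4567840 with 12.3-fold each (10.8 to 14.0). All of these intervals overlap that of OsPRR37. The nearest ELF3 region outside the window lay 533.0 kb below the start, from 29078902 to 29083746, and was 4845 bp wide with 9 summits and 10.1-fold enrichment (8.74 to 11.7). No list held a region above 29619669 on this chromosome, whose length is not given in the sources used here.

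LUX was compared with ELF3 at OsPRR37 because LUX is the DNA-contacting member of the complex. The LUX region nearest to OsPRR37 lay 5.22 Mb away, from 24394546 to 24394706, with 37 tags and 2.65-fold enrichment (1.89 to 3.61), rank 149 of 177. In the other LUX call the nearest was 23.0 Mb away. Only 5 LUX regions were listed on all of chromosome 7, and 3 in the other call. A peak list holds nothing below its threshold, so the LUX level at OsPRR37 is not known. The fewest tags of any listed LUX summit at the genome-wide background were 33, which gives 2.63-fold (1.84 to 3.65). A LUX summit of that height at OsPRR37, with the genome-wide background and sufficient width, would reach the list. The local background at OsPRR37 in the LUX call is not in the files. A higher one would raise the tags needed and lower the fold enrichment at which a summit is listed, and the lowest of any listed LUX summit was 1.96-fold. In the other LUX call the corresponding values at the genome-wide background were 26 tags and 3.16-fold (2.12 to 4.55).

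Regions with as much ELF3 as OsPRR37 were split in whether LUX was listed. Of the 28 ELF3 regions with at least 11.96-fold enrichment, OsPRR37 was 1 of 19 without LUX and 9 held a LUX region. Among the 10 regions closest to OsPRR37 in order, with ELF3 at 11.4-fold to 12.5-fold, 2 held LUX. In the other call, 3 of the 28 regions with at least its ELF3 enrichment held LUX. Over all ELF3 regions, 15 of 824 held LUX in the main call and 4 of 843 in the other. An ELF3 region without LUX was therefore the usual case. The other call of LUX listed 91 regions in all.

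The closest match to OsPRR37 in ELF3 lay on chromosome 12 from 18616445 to 18618673. It also had 251 ELF3 tags and 11.96-fold enrichment at its highest summit, in a region of 2229 bp with 4 summits. There, a LUX region with 48 tags and 2.79-fold enrichment (2.07 to 3.67) was listed, 65 bp from the ELF3 summit and in both LUX calls. The next region, on chromosome 1 from 39074688 to 39077211, had 223 ELF3 tags and 11.9-fold enrichment (10.4 to 13.5). Its LUX region had 38 tags and 3.01-fold enrichment (2.16 to 4.09), 98 bp from the ELF3 summit, and was absent from the other LUX call. OsPRR37, with ELF3 tags equal to those of the chromosome 12 region, had no listed LUX region. The LUX intervals of the chromosome 12 and chromosome 1 regions include 2.63-fold, the lowest value listed at the genome-wide background. The lists hold no LUX value for OsPRR37, so whether its LUX differed from that of either region is not known.

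Over all 15 ELF3 regions that held LUX, LUX enrichment ranged from 2.49-fold to 4.38-fold, with a median of 3.01 and 34 to 56 tags. The ratio of LUX to ELF3 enrichment, each less 1, ranged from 0.116 to 0.567 with a median of 0.185. The 2 libraries differed in antibody, plants and extension length, and both were set against the wild-type input. This ratio is therefore no measure of relative occupancy. The 15 regions were counted because LUX was listed in them, so their ratios give no estimate for OsPRR37. In the other call 4 ELF3 regions held LUX, with LUX enrichment from 3.06-fold to 3.94-fold.

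At Ghd7, which lies near 9152400 to 9155200, no region of either protein was listed in the 30 kb window in either call. The nearest ELF3 region began 27.7 kb beyond the gene's higher end and 13.0 kb separated its summit from the window. It ran from 9182879 to 9183178, was 300 bp wide with 1 summit, and had 62 tags, 3.35-fold enrichment (2.58 to 4.27) and a −log10 q of 9.57, rank 363 of 824. In the other call it had 60 tags and 3.32-fold enrichment (2.55 to 4.25). Which gene lies there was not looked up, since no annotation of this build was used.

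On the lower side the nearest ELF3 region was 744.2 kb from Ghd7, at 8407978 to 8408183, with 68 tags and 2.79-fold enrichment (2.18 to 3.52). The stretch between these neighbours was 774.7 kb. Of 812 such stretches between neighbouring ELF3 regions, 130 (16.0%) were at least as long, and their median was 70.7 kb. For LUX the neighbours were 1.57 Mb below Ghd7, with 3.39-fold enrichment (2.48 to 4.53), and 15.2 Mb above it, the same region that lay nearest to OsPRR37. That stretch of 16.8 Mb was the longest of 165 between neighbouring LUX regions.

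**Figure D4:**
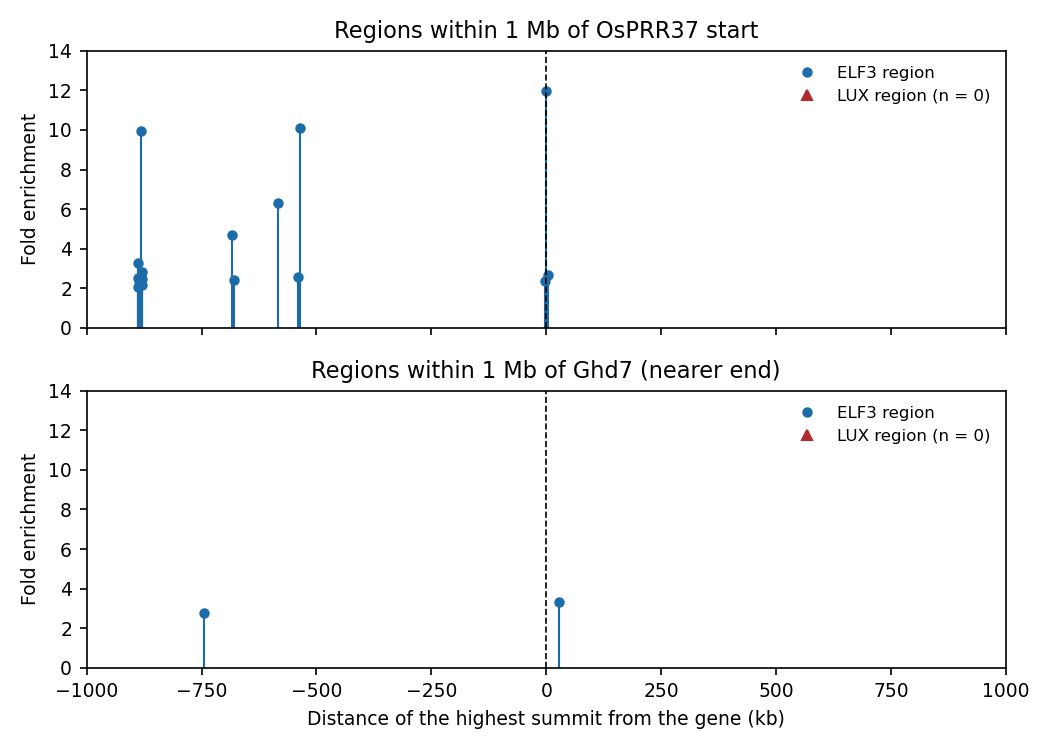
Fold enrichment over input (y axis) of ELF3 regions within 1 Mb of OsPRR37 (top) and Ghd7 (bottom) against the distance of their highest summit from the gene in kb (x axis, gene at the dashed line). There are 16 ELF3 regions around OsPRR37, the 3 of its own window included, up to 11.96-fold, and 2 around Ghd7, up to 3.35-fold, and 0 LUX regions in either map.

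Absence from the lists does not show that enrichment at Ghd7 was nil. The fewest tags of any listed ELF3 summit at the genome-wide background were 39, which gives 2.13-fold (1.53 to 2.89). In the other call these values were 38 tags and 2.13-fold (1.52 to 2.89). The local background at Ghd7 is not in the files for either protein, and a higher one would raise the tags needed. At the nearest ELF3 region on the lower side it was 19.0 scaled tags, against 14.2 genome-wide. For LUX the values at the genome-wide background are those given for OsPRR37. Within 1 Mb of Ghd7 there were 2 ELF3 regions, and within 1 Mb of OsPRR37 there were 16, of which 15 lay below the start and 1 above it. The 16 include the 3 regions of the OsPRR37 window itself. The length of chromosome 7 was not given, so how much of the 1 Mb above the OsPRR37 start exists is not known, and the spans compared may be unequal.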

How the data were processed

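The file headers give MACS 2.2.7.1 as the peak caller, run on either ChIP library with the input as control, at a q-value cutoff of 0.05. The effective genome size set for the calls was 210 Mb. BWA, MACS2, deepTools and the build IRGSP-1.0 are named per the submitters' processing notes, and aligner settings were not used here. The authors deposited 2 calls of each library, with a lower model fold bound of 2 (main) or 5 (other). Tags were extended to 202 or 197 bp for ELF3 and 122 or 76 bp for LUX, per the file headers. The main call was preferred because 76 bp nearly equals the tag size of 75 bp. The deposited pileup is coverage signal in scaled tags, the deposited fold is a ratio, pileup plus 1 over local background plus 1, and the deposited −log10 q is the caller's. Peak values are the authors' own.

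Pileup divided by 0.806 (ELF3) or 0.734 (LUX) gave whole tags to within 0.01. Lines that share both ends were taken as 1 region, ranked by its highest summit, and ties share the better rank. Overlap was at least 1 bp. Background shares came from adjoining windows up to the furthest listed region of each chromosome. The gene positions were given with the definition of the loci, and members, lists and comparisons were chosen with earlier results of these data known. Values are given for the member genes only. A list of 30 further clock and flowering genes was not analysed, because the gene table used is on another assembly. Intervals and window counts were tested on simulated data. The software was Python 3.11.15 with scipy 1.17.1, pandas 2.3.3, numpy 2.4.6 and, for plots, matplotlib 3.10.9.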

Additional observations from a re-analysis of the deposited data

How the results depend on the processing

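The counts of 3 ELF3 regions at OsPRR37 and 0 at Ghd7, and of 0 LUX regions at either gene, were the same in the other call, with any overlap of region and window, and with windows from 3 kb before the gene. The end of OsPRR37 was not used, so that its window ran to 29645000, and for Ghd7 3 kb were added on both sides. These narrower windows lie inside the main ones, so a count of 0 could not change in them. With only summits of a −log10 q of 10 or more, 1 ELF3 region was left at OsPRR37. With windows widened by 20 kb at each end, 1 ELF3 region entered at Ghd7, the one 27.7 kb from the gene, and the other three counts were unchanged. The highest enrichment at OsPRR37 was 11.96-fold in the other call and 13.3-fold against the genome-wide background. The interval of 10.5 to 13.5 covers counting error in the ELF3 tags only, and neither that in the input nor the choice of background. The rank of the central OsPRR37 region was 28 of 843 in the other call, 24 by −log10 q and 22 by tags. The widened windows and the ranks were chosen after seeing the data. No fold enrichment exists for LUX at either gene or for ELF3 at Ghd7, and the alternatives for a list of other flowering and clock genes were not run. No paired analysis was possible because each group holds 1 library. The fewest tags of a summit listed at the genome-wide background in the main call were 39 for ELF3 and 33 for LUX. These are observed minima, which depend on the q-value cutoff, extension length and effective genome size as well as on depth.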
